A study of Saccharomyces cerevisiae with 6 samples.

Results

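The genes described here encode the later part of the yeast respiratory chain and the enzyme it powers. They are the nuclear genes for subunits of complex III (cytochrome bc1), cytochrome c, complex IV (cytochrome c oxidase) and ATP synthase, with assembly factors of complex IV and ATP synthase and the NADH dehydrogenase gene NDI1. Genes were taken by symbol: every COX, QCR or ATP symbol followed by a number, with or without the letter A or B, and CYC1, CYC7, CYT1, COR1, RIP1 and NDI1. The rule found 50 genes among the 5449 genes of Saccharomyces cerevisiae measured, each with 1 probe set. They comprise 9 complex III subunits, 2 cytochrome c isoforms, 9 complex IV subunits, 10 complex IV assembly factors, 13 ATP synthase subunits, 6 ATP synthase assembly factors and NDI1. All 50 were above the background level, the 95th percentile of 1746 probe sets named for other genes, on all 6 arrays.

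In respiration, electrons from NADH and succinate reach ubiquinol, pass through complex III to cytochrome c, and are handed by complex IV to oxygen. Complexes III and IV pump protons across the inner mitochondrial membrane, and ATP synthase uses the returning protons to make ATP. Budding yeast has no proton-pumping complex I, and single-protein dehydrogenases such as Ndi1 take its place. A few subunits are encoded by mitochondrial DNA, and the rest are made in the cytosol and imported. Many of the nuclear genes are activated by Hap2/3/4/5 when glucose is scarce, and some have a hypoxic paralog that oxygen and heme repress.

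RNA was measured on Affymetrix arrays from chemostats, continuous cultures whose growth rate is set by the feed, here at a dilution rate of 0.10 per hour with limiting glucose, 30 °C, pH 5 and aeration. The wild type (S288C, MAT a) received 10 mM 3AT and the gcn4-delta strain, deleted for GCN4 in the same background, received 0.1 mM 3AT, both in YNB medium, with 3 arrays each. 3AT (aminotriazole) inhibits the histidine enzyme encoded by HIS3, and Gcn4 activates amino acid biosynthesis genes. Genotype and 3AT dose changed together, so their parts in any difference cannot be told apart. Whether the replicates were separate chemostats is not in the labels; p-values cover the spread among these 6 arrays, and that spread may be technical.

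The values are RMA intensities on a linear scale, and the number of arrays limits their precision. Median intensities lay between 665 and 712 and background levels between 17.9 and 25.2. GCN4 read 7248 to 7312 in the wild type and 11.4 to 213 on the gcn4-delta arrays, where 1 of 3 was above background. Summed over 6 MATa markers, intensity was 7526 to 11501, against 604 to 934 over 4 MATα markers, each of which was still above background on all arrays. The wild-type arrays differed on iron uptake genes: the summed intensity of 16 such genes was 8161, 45188 and 26554 in wild type replicates 1, 2 and 3, against 59894 to 66412 in gcn4-delta.

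Few respiratory genes passed the test between the strains. At a Benjamini-Hochberg adjusted p under 0.05 in limma, 1 of 50 was lower in gcn4-delta (CYC7, the minor isoform of cytochrome c) and 1 was higher (COX18, which inserts part of Cox2 into the membrane). Among all genes tested, 11.3% were called, 6% lower and 5.34% higher. At an unadjusted p under 0.05, 7 of the 50 were called, beside 28.6% of all genes. The fitted log2 changes ran from -0.59 to 0.55 with a median of 0.10, beside a median of 0.04 over all genes. The 95% interval of the change lay within a 2-fold difference (log2 between -1 and 1) for 49 of the 50, beside 88.1% of all genes, and within 0.5 on the log2 scale for 36, beside 53.5% of all genes. COX15, the heme A synthase, was the exception to the first bound. RMA values are relative to the rest of each array, so these are changes relative to the other transcripts, and fewer cells with a transcript cannot be told apart from less of it per cell.

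**Figure D1:**
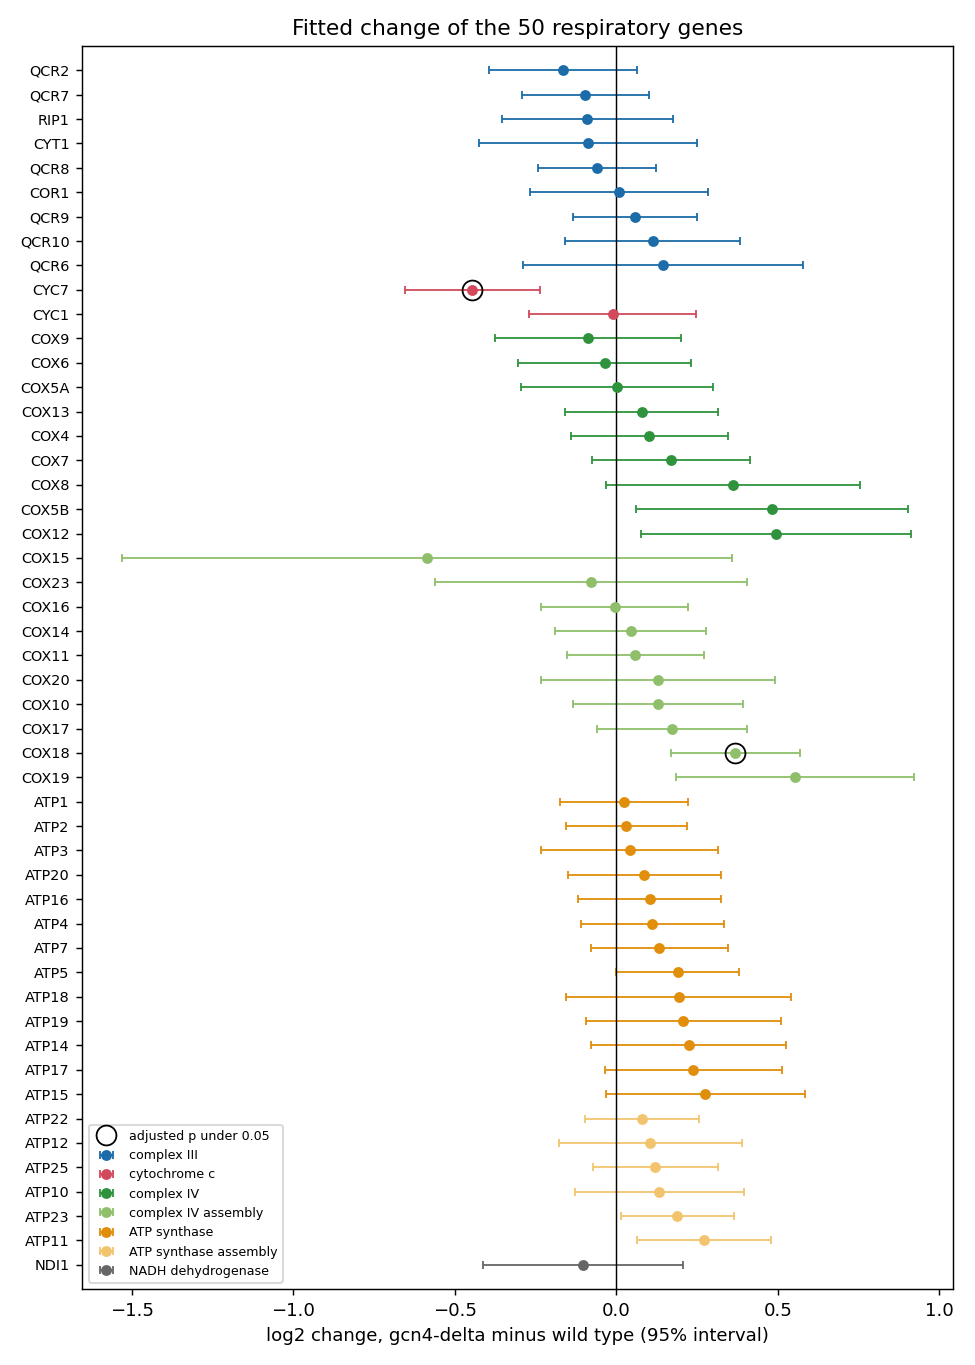
Fitted log2 change of each of the 50 genes (points) with its 95% interval (bars), gcn4-delta minus wild type, 3 arrays each, coloured by role. Circles mark CYC7 at -0.45 and COX18 at 0.37, the genes with an adjusted p under 0.05, and the interval of COX15 is the widest.

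None of the 9 complex III subunits passed the test, beside 11.3% of all genes. Their log2 changes ran from -0.16 to 0.14 with a median of -0.06, 5 below and 4 above 0. In none of them were the groups free of overlap, beside 35.7% of all genes in either direction. QCR2 (YPR191W), a core subunit, had the largest negative change of the complex. It read 4362, 4955 and 5189 in wild type replicates 1, 2 and 3 and 4264, 4147 and 4509.9 in gcn4-delta. The gcn4-delta arrays were on the low side, but their highest lay above the lowest wild-type array (log2 change -0.16 ± 0.10 (SE), limma adjusted p = 0.307). QCR7 (YDR529C), a small subunit, read 6872, 7105 and 7568 against 6567, 6586 and 7006 and likewise overlapped, at -0.10 (adjusted p = 0.478).

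At the other end stood QCR6 (YFR033C), the acidic subunit called the hinge protein, and QCR10 (YHR001W-A), another small subunit. QCR6 read 2830.1, 4101 and 4678 in the wild type and 4289, 4045 and 4229 in gcn4-delta. Wild type replicate 1 was far below the other 5 arrays, which overlapped. The change was 0.14 ± 0.18 (SE, adjusted p = 0.630), and -0.07 without that array. QCR10 read 2509, 2619.8 and 3151 against 3099, 3073 and 2756, with the highest value in the wild type (0.11, adjusted p = 0.545). The catalytic subunits gave equally small changes, -0.09 for CYT1, cytochrome c1, and -0.09 for RIP1, the Rieske iron-sulfur protein. COR1, the other core subunit, was at 0.01, QCR8 at -0.06 and QCR9 at 0.06. Adjusted p was at least 0.307 in every subunit of the complex.

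Cytochrome c, the soluble carrier between complexes III and IV, has a main isoform encoded by CYC1 and a minor one encoded by CYC7, which is raised in low oxygen and under stress. CYC7 (YEL039C) read 680.0, 680.1 and 665 in wild type replicates 1, 2 and 3 and 467, 482 and 541 in gcn4-delta replicates 1, 2 and 3. All gcn4-delta arrays lay below all wild-type arrays, and the wild-type arrays were close together. The mean fell from 675 ± 8.82 to 497 ± 38.7 (SD, n = 3 each). The fitted log2 change was -0.45 ± 0.09 (SE, limma adjusted p = 0.0229), or 1.36-fold lower. The call was lost without wild type replicate 2 or 3 or gcn4-delta replicate 1 or 2 (adjusted p up to 0.133), while the change stayed between -0.51 and -0.40 over the 6 omissions of 1 array.

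CYC1 (YJR048W) read 3341, 3252 and 4091 in the wild type and 3494, 3597 and 3457 in gcn4-delta. The gcn4-delta values sat inside the wild-type range, and the log2 change was -0.01 ± 0.11 (SE, adjusted p = 0.958). The change of CYC7 minus that of CYC1, taken within each array, was -0.43 ± 0.14 (SE) on the log2 scale, and the arrays of the strains did not overlap in it. The exact two-sided permutation test gave p = 0.10, the smallest that 3 against 3 arrays allow, and 0.20 after adjustment over the 2 isoform pairs tested. A design of this size cannot reach 0.05 in that test.

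**Figure D2:**
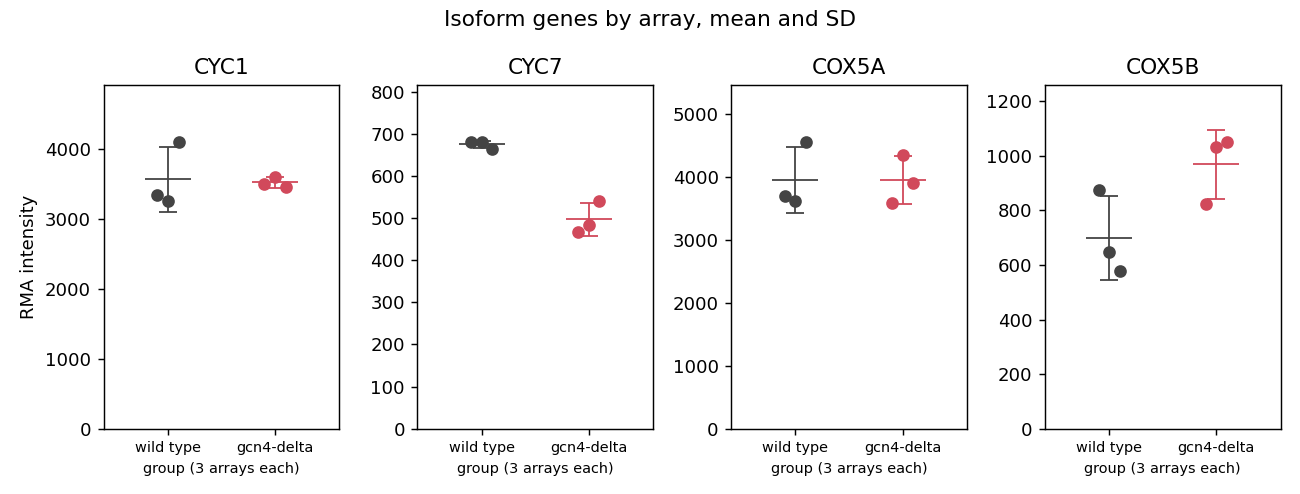
RMA intensity of the isoform genes CYC1, CYC7, COX5A and COX5B on each array (points), with the mean (bar) and SD of 3 arrays, each panel on its own axis from 0. CYC7 is lower on all gcn4-delta arrays (467 to 541) than on the wild-type arrays (665 to 680.1), and COX5B overlaps because wild type replicate 1 read 873.

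Complex IV subunits ranged from little change to larger positive values, and none passed the test, beside 11.3% of all genes. Of 9 subunits 2 were below 0 and 7 above, with a median log2 change of 0.10 and a range of -0.09 to 0.49. COX12 (YLR038C), subunit VIb, read 2849, 4387 and 4362 in the wild type and 5528, 5378 and 5133 in gcn4-delta. All gcn4-delta arrays were higher, and wild type replicate 1 was well below the other wild-type arrays. The means were 3866 ± 881 and 5346 ± 199.8 (SD, n = 3 each), and the change was 0.49 ± 0.18 (SE, adjusted p = 0.124). Without wild type replicate 1 it was 0.29 (adjusted p = 0.0694).

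COX8 (YLR395C), subunit VIII, was also lowest on wild type replicate 1 among the wild-type arrays, with 1744, 2287 and 2620.3, and read 3001, 2965 and 2487 in gcn4-delta. The groups overlapped, and the change was 0.36 ± 0.17 (SE, adjusted p = 0.207), or 0.20 without wild type replicate 1. COX7, subunit VII, was at 0.17 (adjusted p = 0.324), and its lowest gcn4-delta array (4262) barely cleared its highest wild-type array (4259). COX12 and COX7 were the 2 of 9 subunits whose gcn4-delta arrays were all higher, beside 21.1% of all genes. COX13 and COX4, subunits VIa and IV, were at 0.08 and 0.10. The subunits with negative values were COX9 (YDL067C, subunit VIIa) and COX6 (YHR051W, subunit VI). COX9 read 3297, 2782 and 3499 against 2753, 3314 and 2939, and COX6 read 3419, 3107 and 3889 against 3136, 3636 and 3363. Both overlapped widely between the strains, at -0.09 (adjusted p = 0.667) and -0.04 (adjusted p = 0.859).

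Subunit V is made from COX5A in air and from COX5B when oxygen is low. COX5A (YNL052W) read 3695, 3617 and 4554 in the wild type and 3595, 4346 and 3911 in gcn4-delta. The groups covered nearly the same range, and the log2 change was 0.00 ± 0.12 (SE, 95% interval -0.29 to 0.30, adjusted p = 0.994). COX5B (YIL111W) read 873, 648 and 578 in the wild type and 823, 1032 and 1049.9 in gcn4-delta, a log2 change of 0.48 ± 0.18 (SE, adjusted p = 0.132). Wild type replicate 1 lay above gcn4-delta replicate 1, the only overlap between the groups. Without wild type replicate 1 the change was 0.65 and passed the test (adjusted p = 0.0286). COX5B moved by 0.48 ± 0.27 (SE) more than COX5A on the log2 scale, a difference with p = 0.20 in the exact two-sided permutation test and 0.20 adjusted over the 2 pairs, and 0.70 (exact p = 0.10) without wild type replicate 1. The hypoxic isoform genes CYC7 and COX5B had fitted values of opposite sign, of which only that of CYC7 passed the test with all arrays.

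Complex IV needs many helpers that are not part of the enzyme, and these held the widest range of values. Of 10 factors 1 passed, beside 11.3% of all genes, and 3 were below 0 and 7 above (median 0.09). COX18 (YGR062C), which exports the C-terminal tail of Cox2 across the inner membrane, read 321, 329.9 and 359.7 in the wild type and 419, 440.1 and 445 in gcn4-delta. Every gcn4-delta array was above every wild-type array, and the mean rose from 337 ± 20.1 to 435 ± 14.1 (SD, n = 3 each). The log2 change was 0.37 ± 0.08 (SE, limma adjusted p = 0.0378), or 1.29-fold. Leaving out any 1 of the 6 arrays took the call away (adjusted p 0.0532 to 0.138), with changes of 0.34 to 0.42.

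COX19 (YLL018C-A), a small intermembrane-space protein linked to copper delivery, had a larger change with more spread. It read 675, 549 and 749.7 in the wild type and 866, 1130.0 and 897 in gcn4-delta. The groups did not overlap, and gcn4-delta replicate 2 was the highest. The change was 0.55 ± 0.15 (SE, adjusted p = 0.0687) and did not pass. COX17, the copper chaperone of the enzyme, was also higher on all gcn4-delta arrays, at 0.17 (adjusted p = 0.287), whereas COX23 (YHR116W), a relative of COX17, read 215, 129 and 199.8 against 148, 174 and 184 and overlapped widely (-0.08, adjusted p = 0.829). COX11, which brings copper to Cox1, was at 0.06.

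COX15 (YER141W) varied most of the 50 on the log2 scale among arrays of one strain, with the largest SE of the change. It encodes the last enzyme of heme A synthesis, and its intensity was 2319, 874 and 1605 in wild type replicates 1, 2 and 3 and 730.4, 1476 and 893 in gcn4-delta. Each strain held both high and low arrays, so the change of -0.59 ± 0.40 (SE, adjusted p = 0.373) could not be told from 0, and its 95% interval ran from -1.53 to 0.36. Leaving out wild type replicate 2 gave -0.97, and leaving out wild type replicate 1 gave -0.26. COX10, the enzyme of the preceding step of heme A synthesis, did not share this spread (376 to 456 in the wild type, 428 to 503 in gcn4-delta, change 0.13). The factors COX20 and COX14, which act on Cox2 and Cox1, were at 0.13 and 0.04, and COX16 was at -0.00.

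**Figure D3:**
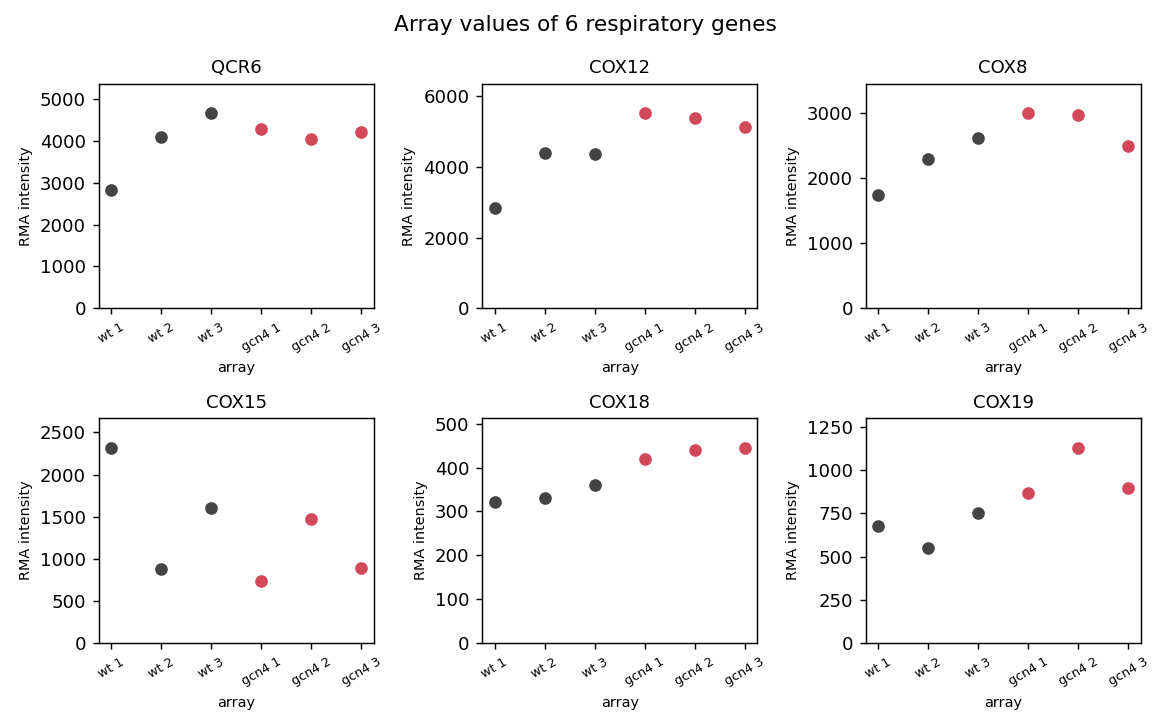
RMA intensity of QCR6, COX12, COX8, COX15, COX18 and COX19 on each of the 6 arrays, each panel on its own axis from 0 (wt, wild type, and gcn4, gcn4-delta, with replicate number). Wild type replicate 1 is lowest for QCR6, COX12 and COX8, COX15 varies within both strains, and the groups of COX18 and COX19 do not overlap.

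All 13 ATP synthase subunits had a positive fitted change and none passed the test, beside 11.3% of all genes. Their log2 changes ran from 0.02 to 0.28 with a median of 0.13, and adjusted p was 0.178 or more. Over all genes 55.7% had a positive change. ATP15 (YPL271W), the ε subunit of the central stalk, had the largest. It read 3651, 4775 and 4687 in the wild type and 5386, 5579.7 and 4832 in gcn4-delta. The groups did not overlap, and wild type replicate 1 was the low one (0.28 ± 0.13 SE, adjusted p = 0.213). ATP17 (YDR377W), subunit f of the membrane part, read 2917, 3282 and 3331 against 3768, 4202 and 3313 and overlapped by 1 array (0.24, adjusted p = 0.223).

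The catalytic core had the smallest values. ATP1 and ATP2, the α and β subunits that bind the nucleotides, were at 0.02 and 0.03 with intervals of -0.17 to 0.22 and -0.16 to 0.22, and ATP3, the γ subunit that turns inside them, was at 0.04. ATP16, the δ subunit beside ε, was at 0.10. Subunits of the peripheral stalk were at 0.11 for ATP4, 0.13 for ATP7, 0.19 for ATP5 and 0.22 for ATP14. The small membrane subunits ATP20, ATP18 and ATP19 were at 0.09, 0.19 and 0.21. Gcn4-delta arrays were all higher in 3 of the 13, ATP5, ATP7 and ATP15, near the 21.1% of all genes.

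One wild-type array was low across these subunits. In all 13 subunits wild type replicate 1 was the lowest wild-type array, which held for 32.4% of all genes. Without it the median change of the 13 was 0.05, and ATP1 and ATP3 turned to -0.03 and -0.07. Wild type replicate 1 was also the lowest wild-type array for 7 of 9 complex III subunits, whose median change was -0.06.

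The 6 assembly factors of ATP synthase also all had positive values, 0.08 to 0.27, and none passed, beside 11.3% of all genes. ATP11 (YNL315C), a chaperone of the β subunit, was the highest, at 727, 799.9 and 837 in the wild type and 969.7, 926 and 952 in gcn4-delta. Its groups did not overlap, and the means were 788 ± 56.2 and 949 ± 22.1 (SD, n = 3 each), a change of 0.27 ± 0.09 (SE, adjusted p = 0.0976). ATP12, the chaperone of the α subunit, was at 0.11 with overlapping groups. ATP23, a protease that matures the mitochondrially made Atp6, had the tightest arrays, 371, 377 and 380.2 against 422, 432 and 433. The strains were apart, but the change was small, 0.19 ± 0.07 (SE, adjusted p = 0.148). ATP22, needed to translate the ATP6 message, was at 0.08, ATP10 at 0.13 and ATP25 at 0.12. In 3 of the 6, ATP11, ATP23 and ATP22, all gcn4-delta arrays were higher, beside 21.1% of all genes. NDI1 (YML120C), which feeds electrons from NADH inside the mitochondrion to ubiquinone, read 1562, 1874 and 2163 against 1739, 1789 and 1645, a change of -0.10 (adjusted p = 0.631) with overlapping groups.

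The complexes were compared by their medians, without a test because the genes were chosen with results known. Complex III subunits had a median log2 change of -0.06, complex IV subunits 0.10, ATP synthase subunits 0.13 and the 16 assembly factors 0.12. The ranges over the 6 omissions of 1 array were -0.10 to 0.03 for complex III, 0.05 to 0.19 for complex IV, 0.05 to 0.17 for ATP synthase and 0.08 to 0.16 for the assembly factors. Complex III had the lowest median in the fit of all arrays. The number whose gcn4-delta arrays were all higher was 0 of 9 in complex III, 2 of 9 in complex IV, 3 of 13 in ATP synthase and 6 of 16 among assembly factors, against 21.1% of all genes. CYC7 was the one gene of the 50 whose gcn4-delta arrays were all lower, against 14.6% of all genes.

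**Figure D4:**
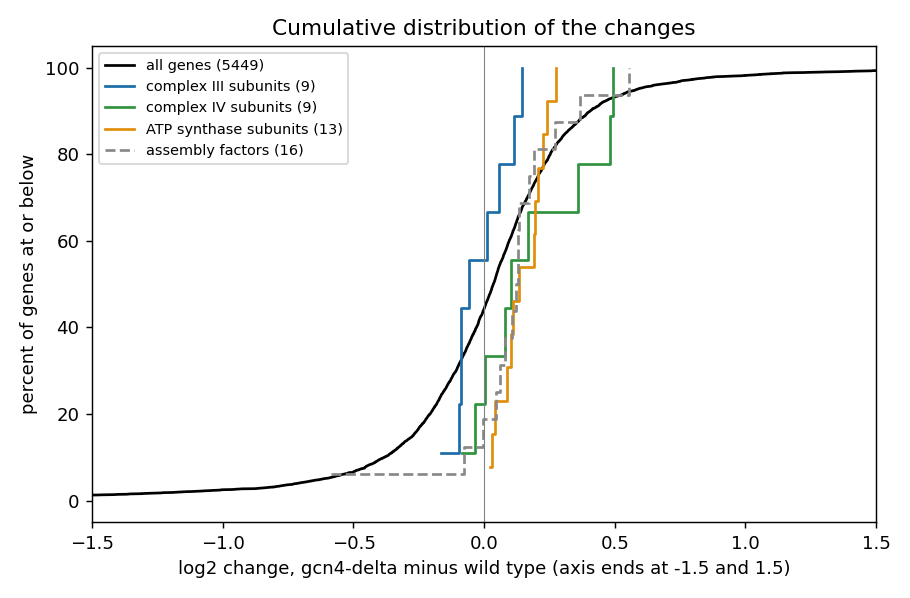
Cumulative percent of genes (vertical axis) at or below each log2 change, gcn4-delta minus wild type (horizontal axis), for all 5449 genes, 9 complex III subunits, 9 complex IV subunits, 13 ATP synthase subunits and 16 assembly factors. The complex III curve lies to the left of the complex IV and ATP synthase curves, around medians of -0.06, 0.10 and 0.13.

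The wild-type arrays differed among themselves on these genes. Wild type replicate 1 was the lowest wild-type array for 36 of the 50 genes (32.4% of all genes) and wild type replicate 3 the highest for 31 (26.1% of all genes). Set against the other wild-type arrays, the 50 genes lay at a median of -0.18 on wild type replicate 1, 0.04 on wild type replicate 2 and 0.13 on wild type replicate 3 (log2). Within gcn4-delta the same medians were 0.03, 0.00 and -0.01. The SD of intensity was larger in the wild type than in gcn4-delta for 39 of the 50, beside 66.3% of all genes. Wild type replicate 1 was also lowest in the summed iron uptake genes given above, and that sum was highest in wild type replicate 2. Whether the iron and respiratory values of the wild-type arrays are linked was not tested.

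**Figure D5:**
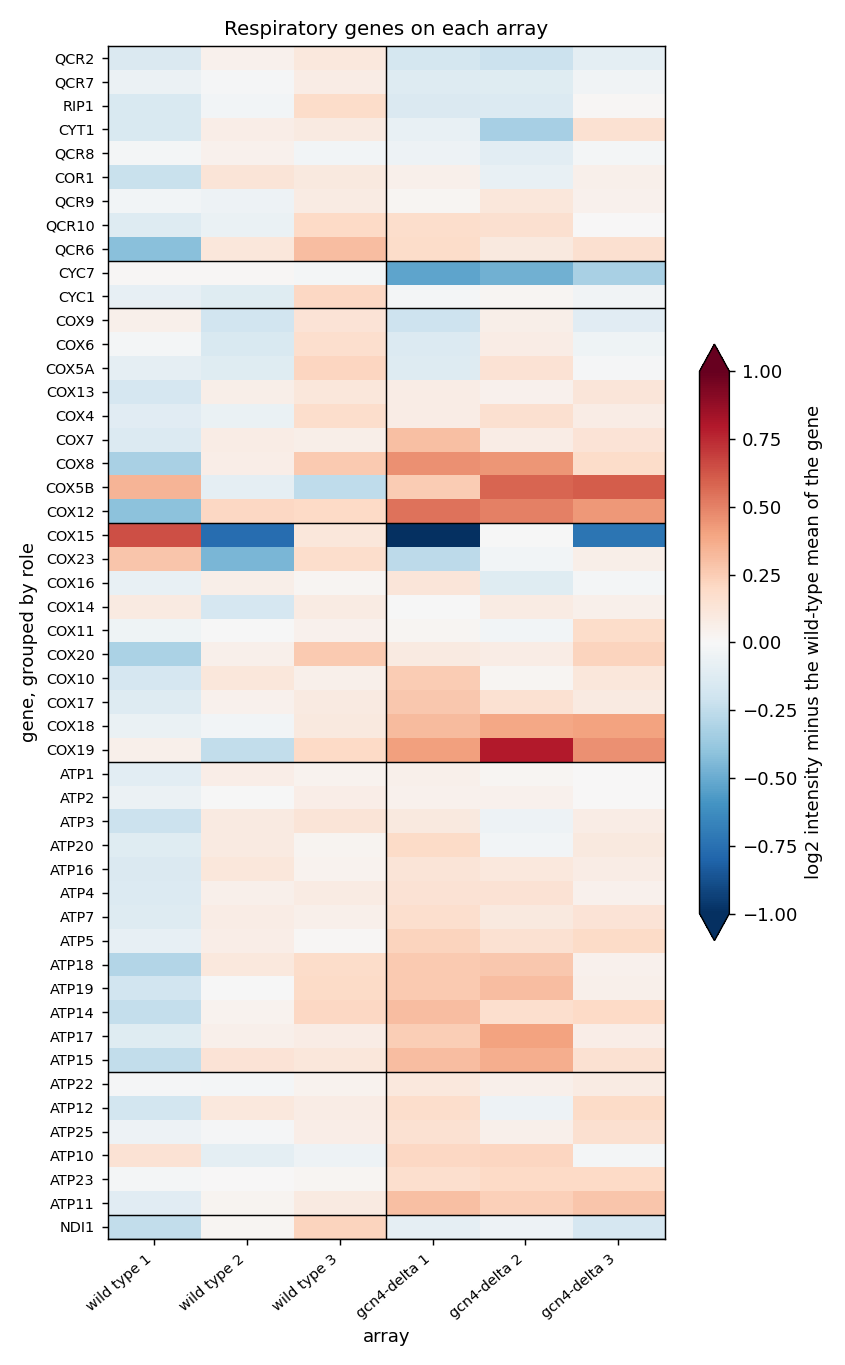
Each gene (rows, grouped by role) on each array (columns) as log2 intensity minus the gene's wild-type mean; red is higher and blue lower, and the scale ends at -1 and 1. Wild type replicate 1 is mostly blue and replicate 3 mostly red, CYC7 is blue on all gcn4-delta arrays, and COX15 changes sign between arrays of one strain.

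Other genes of the chain gave context. Among 10 other genes that feed electrons in, 2 rose in gcn4-delta and 8 did not pass (median -0.02), beside 11.3% called among all genes. The 2 act on lactate and pass electrons to cytochrome c: CYB2, L-lactate dehydrogenase, at 0.81 (adjusted p = 0.00581), and DLD1, D-lactate dehydrogenase, at 0.51 (adjusted p = 0.0308). CYB2 read 431, 542 and 534 in the wild type and 880.3, 851 and 891 in gcn4-delta, with no overlap, and it passed in every omission of 1 array. DLD2, a relative of DLD1, had a value of the opposite sign, -0.41 (adjusted p = 0.0523), which did not pass, with all gcn4-delta arrays lower. DLD1 was lost without wild type replicate 2 or any one gcn4-delta array (adjusted p up to 0.125). The 4 genes of complex II were not called, with SDH1 at -0.21, SDH2 at -0.35, SDH3 at 0.02 and SDH4 at -0.22. All gcn4-delta arrays were lower for SDH2 (limma adjusted p = 0.191), as for 14.6% of all genes. The groups of SDH1, SDH3 and SDH4 overlapped.

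Of 33 further assembly factors and activators of mitochondrial messages for complexes III and IV, 2 rose, 1 fell and 30 did not pass (median 0.07). The share called was 9.09%, near the 11.3% of all genes. MSS2, which acts with Cox18 in the export of Cox2, was at 0.42 (adjusted p = 0.0264) and read 241, 266 and 276 against 363, 347 and 339. IMP2, a subunit of the inner membrane peptidase, which processes Cox2 among others, was at 0.60 (adjusted p = 0.0148). CBP3, needed to make cytochrome b of complex III, fell by 0.44 on the log2 scale (adjusted p = 0.0387). In the omissions of 1 array MSS2 kept its call in 1 of 6, IMP2 in 3 of 6 and CBP3 in 0 of 6, with adjusted p up to 0.147, 0.0673 and 0.149. PNT1, another gene of Cox2 export, lay on the other side of 0, at -0.34 (adjusted p = 0.0751), with all gcn4-delta arrays lower. BCS1 was at -0.32 (adjusted p = 0.0513), also with all gcn4-delta arrays lower. The largest value of the list was that of CYC3, which attaches heme to cytochrome c, at 0.84 (adjusted p = 0.0525). CYC3 read 429, 687 and 775 in wild type replicates 1, 2 and 3 and 1115, 1151 and 1025 in gcn4-delta. PNT1, BCS1 and CYC3 did not pass. In the list, gcn4-delta arrays were all higher for 12 of 33 and all lower for 5, beside 21.1% and 14.6% of all genes. Of 10 other ATP synthase genes none passed, beside 11.3% of all genes, and 8 were above 0 (median 0.21). Among them were the inhibitor INH1, at 0.25, and subunit e, TIM11, at 0.32. STF2 had the largest change, 0.53 (limma adjusted p = 0.0880), and its lowest array was wild type replicate 1 (2298). All gcn4-delta arrays were higher in 5 of the 10, STF2 and TIM11 included, beside 21.1% of all genes. At an unadjusted p under 0.05, 3 of the 10 passed, about the 28.6% of all genes.

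None of 9 regulators of respiratory genes passed in limma, beside 11.3% of all genes, and 2 had an unadjusted p under 0.05, beside 28.6% of all genes. HAP4, the limiting subunit of the Hap2/3/4/5 activator, read 2202, 1774 and 2357 in the wild type and 2203, 2857 and 2068 in gcn4-delta, which overlap (0.17, adjusted p = 0.532). HAP1, the heme-responsive activator, was higher on all gcn4-delta arrays at 0.47 (adjusted p = 0.0763), and at 0.61 it passed when wild type replicate 2 was left out (adjusted p = 0.0226). ROX1, the repressor of hypoxic genes, was at 0.21 (adjusted p = 0.216). TIS11 encodes an RNA-binding protein that speeds the decay of iron-dependent messages, respiratory ones among them, when iron is low. It read 129.6, 2273 and 1004 in wild type replicates 1, 2 and 3 and 3949.7, 4572 and 3655 in gcn4-delta, the same order of wild-type arrays as in the iron uptake sum. Its change was 2.60 ± 0.95 (SE, adjusted p = 0.131), and it passed at 1.42 (adjusted p = 0.0397) when wild type replicate 1 was left out and at 3.49 (adjusted p = 0.0446) when wild type replicate 2 was. CTH1, its relative, was at -0.53 (adjusted p = 0.211). Of the 16 iron uptake genes 5 rose, beside 5.34% of all genes, led by FRE2 at 2.51, HMX1 at 2.49 and FRE3 at 2.48 (adjusted p = 0.00746, 0.00815 and 0.0387), FRE3 without its call when wild type replicate 3 or any one gcn4-delta array was left out (adjusted p up to 0.137). The other 11 iron uptake genes did not pass, and 1 of the 16 was below 0. That gene, FET4, was at -1.47, with all gcn4-delta arrays lower (adjusted p = 0.109). The part of iron genes in the respiratory values was not tested.

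The cytochrome c and subunit V genes belong to a set of 5 aerobic and hypoxic pairs in yeast. Beside CYC7 at -0.45 and COX5B at 0.48, the other hypoxic members were ANB1, a translation factor, at 0.52 (adjusted p = 0.0718), HMG2 of sterol synthesis at 0.13 (adjusted p = 0.518) and AAC3, an ADP/ATP carrier, at 0.01 (adjusted p = 0.978). Leaving out wild type replicate 1 brought ANB1 to 0.64, past the test (adjusted p = 0.0341). Of the 5 hypoxic genes 1 fell and 0 rose, beside 6% lower and 5.34% higher among all genes. None of the 5 aerobic members passed, and they lay between -0.06 and 0.15 on the log2 scale. At an unadjusted limma p under 0.05 were 3 of the 5 hypoxic genes (CYC7, COX5B and ANB1) and 0 of the 5 aerobic genes, beside 28.6% of all genes. The 3 did not share a direction, and sets of 5 are too small to set against that share.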

How the data were processed

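The authors deposited RMA intensities, linear in scale, with 1 value for each probe set on each array; the RMA step is taken from the submitters' processing notes, which give no version here and do not say whether the arrays were processed together. Of 10928 probe sets, 5498 matched S. cerevisiae genes by the identifier in the platform annotation (names from the R64 reference table), and the brightest stood for each of 5449 genes. The 95th percentile of 1746 named probe sets of other genes was the background level of an array.

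Log2 values were fitted with limma 3.58.1 in R 4.3.3 (lmFit, eBayes, gcn4-delta minus wild type, no covariates), with adjusted p over the 5498 probe sets. Intervals are from the moderated t distribution. Isoform pairs were compared by exact permutation of the arrays. The members and lists were chosen with earlier results of these data known. Values per array are given for called members, the 4 isoform genes and the 2 largest changes per direction in each complex and among assembly factors, and others as space allowed. ANB1, HMG2, AAC3, DLD2, PNT1, CYC3, BCS1, STF2 and FET4 were named after their values were seen. On simulated data for this comparison (5498 probe sets), 37.3% of 67 changes of 0.5, 94.0% of 67 changes of 1 and 100% of 66 changes of 2 on the log2 scale were recovered, with 6 false calls of 160. The simulation drew errors independently for each probe set, without deviations shared by genes of an array. It also had fewer calls than the 618 genes called in the data, so the shares recovered may differ there. Alternatives were the replicate block, omission of each array, quantile normalization, median centring, a pseudocount of 50, means of probe sets, removal of the lowest 25% of probe sets, trend and robust variances, and array weights. The array build is not given, so no coordinates are printed, and no sequence was used. Figures were drawn with matplotlib 3.10.9.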

Additional observations from a re-analysis of the deposited data

How the results depend on the processing

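With 3 arrays a strain, neither CYC7 nor COX18 kept its call in every omission of 1 array. Their changes stayed at -0.51 to -0.40 and at 0.34 to 0.42. CYB2, FRE2, HMX1 and GCN4 were called in each of the 6 omissions. The count of respiratory genes called, 2 with all arrays, ran from 0 to 2 over the 6 omissions of 1 array, and that of all genes called, 618, from 220 to 713. With the replicate number as a block the counts were 0 and 210, a fit that loses both CYC7 and COX18 (adjusted p = 0.119 and 0.147). Same-numbered arrays of the strains did not deviate together (correlations -0.34, -0.39 and -0.23 over genes, none of them the best of its array), so the numbers are not taken as pairs. Array weights raised the counts to 5 and 1443, adding COX12, COX19 and ATP11, and trend and robust variances added COX19. CYC7 and COX18 were both called under quantile normalization, median centring, the pseudocount, means of probe sets, the filter, trend and robust variances, and array weights. The medians of the complexes moved by less than the spread between arrays in each of 11 alternatives. That spread comes from the same 6 arrays, so leaving out 1 of them could hardly exceed it, and the comparison decides nothing. Over the omissions the median of ATP synthase ran from 0.05 to 0.17, and that of complex III turned to 0.03 in 1 omission. Isoform differences kept their sign, from -0.55 to -0.37 (CYC7 minus CYC1) and from 0.25 to 0.70 (COX5B minus COX5A) over the omissions. Among genes near 0 the sign of the log2 change turned in some omission of 1 array, none of them called in either direction: COR1 (-0.10 to 0.072), QCR6 (-0.065 to 0.30), COX5A (-0.069 to 0.11), COX13 (-0.0047 to 0.13), COX23 (-0.30 to 0.063), COX20 (-0.029 to 0.26), ATP1 (-0.028 to 0.057), ATP3 (-0.066 to 0.11), COX16 (-0.069 to 0.053), COX14 (-0.038 to 0.088), AAC3 (-0.071 to 0.10), COX6 (-0.11 to 0.049), CYT1 (-0.21 to 0.036), RIP1 (-0.17 to 0.0010), CYC1 (-0.073 to 0.093), NDI1 (-0.22 to 0.010) and COX11 (-0.0026 to 0.10). Signs also turned under quantile normalization for CYC1 (0.036), COX6 (0.014), COX16 (0.011), ATP1 (-0.0015), ATP2 (-0.0054) and AAC3 (-0.10), under median centring for COX16 (0.0041), and under array weights for COR1 (-0.040), COX5A (-0.099), COX16 (0.059) and AAC3 (-0.11). The cause was not tested. All 50 genes were above the background level on every array, and the number of arrays limits the precision.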
